A study of Mus musculus with 6 samples.

Results

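The cholesterol genes described here are 33 genes for synthesis, uptake, transport, export and storage of cholesterol, a list matched by symbol among the 25189 symbols of the deposited count table. All 33 have a row. They fall into 5 roles: 8 enzymes from acetyl-CoA to squalene, 10 enzymes from squalene to cholesterol, 5 regulators of the SREBP transcription factors, 5 genes of uptake and transport inside the cell, and 5 genes of the LXR receptors, export and storage. The sample labels name kidney tissue of male C57BL/6 mice of wild-type genotype at day 2 of ischaemia with reperfusion (I/R). In this model renal blood flow is stopped and then restored. There were 3 libraries of I/R and 3 of I/R with chemerin-9 (C9), a peptide agonist of the chemerin receptor made of the last residues of chemerin, so both groups carry the injury and no uninjured kidney is compared here. The titles of all 3 treated samples read C9, whereas their treatment field reads C9, C10 and C11, and their library names begin with S, while the treated columns of the table are named IC. Those columns were matched to these samples by reading IC as initials of I/R and C9, which the library names do not bear out. The sources used here do not give the peptide dose, the length of the ischaemia, the age of the mice or whether each library is its own mouse. The p-values therefore rest on how these libraries vary, and that variation may be technical.

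Cells build cholesterol from acetyl-CoA through mevalonate, isoprenoid diphosphates, squalene and lanosterol, and most of the enzymes are controlled together. When membranes of the endoplasmic reticulum are poor in sterol, SCAP escorts the SREBP proteins to the Golgi, where proteases release a fragment that enters the nucleus and switches on synthesis and uptake genes. INSIG proteins hold SCAP back when sterol is plentiful, and oxysterols then activate the LXR receptors, which switch on export. Tubule cells of the kidney both make cholesterol and take it up, and the renal cortex is known to accumulate cholesterol after acute injury.

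Promoters are shown first for the genes whose window holds a sterol element, here a fixed spelling of the sequences that SREBP binds. Other spellings were not searched. A part of SREBP in the lower RNA described below was not tested. RefSeq windows on build GRCm38.p6, from 250 bases before to 50 bases after the start, were found for 27 of the 33 genes. None was found for Fdps, Fdft1, Sqle, Npc1, Stard4 and Abcg1, so these were not searched. The element was searched as TCACNCCA on both strands, together with the longer form TCACNCCAC that contains it, and it occurred in 3 of the 27 genes, against 4.41% of the 9733 tested genes with a window. The 3 genes are Srebf2 (chr15:82147019-82147318, plus strand), Hmgcs1 (chr13:119690101-119690400, plus strand) and Msmo1 (chr8:64733529-64733828, minus strand). Hsd17b7 (chr1:169969156-169969455, minus strand), the synthesis enzyme with the largest p, is shown beside them and has no match to TCACNCCA. At the threshold given below, RNA of the 3 genes with the element fell. So did that of 16 of the 24 genes without a match to TCACNCCA, Insig1 among them, while 26.1% of all tested genes fell. Each sequence reads 5′ to 3′ along the gene, and capitals mark the sterol elements and the CCAAT boxes, the letters that NF-Y binds, on either strand (ATTGG on the other).
Srebf2: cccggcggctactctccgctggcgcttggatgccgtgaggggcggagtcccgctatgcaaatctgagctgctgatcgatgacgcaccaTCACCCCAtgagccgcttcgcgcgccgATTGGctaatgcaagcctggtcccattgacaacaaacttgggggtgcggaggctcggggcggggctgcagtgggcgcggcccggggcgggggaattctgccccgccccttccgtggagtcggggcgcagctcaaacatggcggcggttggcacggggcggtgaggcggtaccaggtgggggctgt
Hmgcs1: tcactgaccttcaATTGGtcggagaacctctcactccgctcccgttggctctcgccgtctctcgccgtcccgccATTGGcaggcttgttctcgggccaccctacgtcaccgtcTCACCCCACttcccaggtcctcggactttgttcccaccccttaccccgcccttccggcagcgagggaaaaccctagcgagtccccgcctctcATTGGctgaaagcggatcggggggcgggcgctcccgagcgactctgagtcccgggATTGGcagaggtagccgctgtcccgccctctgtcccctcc
Msmo1: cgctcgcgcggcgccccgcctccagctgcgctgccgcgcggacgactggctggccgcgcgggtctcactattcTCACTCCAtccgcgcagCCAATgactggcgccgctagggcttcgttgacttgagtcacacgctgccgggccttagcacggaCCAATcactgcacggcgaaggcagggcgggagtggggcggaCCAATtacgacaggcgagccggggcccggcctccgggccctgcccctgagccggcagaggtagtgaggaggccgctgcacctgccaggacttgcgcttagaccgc
Hsd17b7: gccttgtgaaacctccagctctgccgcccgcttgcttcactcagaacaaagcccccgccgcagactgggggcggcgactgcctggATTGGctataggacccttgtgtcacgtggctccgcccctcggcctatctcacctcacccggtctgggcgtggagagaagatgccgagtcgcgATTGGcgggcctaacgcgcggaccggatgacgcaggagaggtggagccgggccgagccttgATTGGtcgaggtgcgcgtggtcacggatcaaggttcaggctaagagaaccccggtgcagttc
The longer element was found in Hmgcs1 and in none of the other 26 genes, against 1.36% of the tested genes. CCAAT occurred in 22 of the 27 genes, or 81.5%, against 43.9% of the tested genes with a window, and GGGCGG, the letters that Sp1 binds, in 24 of 27, or 88.9%, against 68.8%. The CCAAT and GGGCGG matches in the 4 printed windows did not overlap the sterol elements. The genes without CCAAT were Acat2, Scap, Nr1h2, Nr1h3 and Abca1. The exact direct repeat that LXR binds with its receptor partner was in none of the 27 windows and in none of the tested genes. These are matches of letters in 300 bases and say nothing of binding.

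The library totals ranged from 11217252 to 16938301 counts, and library pairs of 1 group differed by a chi-square per degree of freedom of 1.796 to 5.61. The pairs with I/R replicate 3 had values of 5.61 and 5.14, the largest within a group. Levels are in CPM, counts scaled to a common library size after TMM normalization. The labelled tissue is kidney, but most of its defining markers that had a row were low and did not bear the label out. Rows were found for 4 of 10 proximal tubule markers and for 2 of 8 of the loop, distal tubule and collecting duct. Lrp2 of the proximal tubule was at 2.79 to 3.78 CPM in I/R and 2.5 to 3.84 CPM in treated libraries, Miox of the same cells below 0.2 CPM and Aqp1, also on that list, at 15.7 to 19.8 CPM in the 6 libraries, and Slc12a1 of the loop of Henle and Pecam1 of endothelium stayed below 1 CPM in all 6 libraries. Lyz2 of macrophages was at 1.15 to 2.37 CPM. Among fibroblast markers, collagen Col1a1 was at 737 to 789 CPM and 776 to 816 CPM, whereas Dcn was at 1.76 to 2.79 CPM and Tagln below 1 CPM, and the division marker Mki67 at 1023 to 1066 CPM and 923 to 951.5 CPM. The 8 fibroblast and pericyte markers with a row summed to 1356 to 1412 CPM in I/R and 1296 to 1337 CPM in treated libraries. The 6 cell division genes summed to 3686 to 3832 and 3641 to 3748 CPM. Of 7 tested fibroblast and pericyte markers 2 fell, Acta2 and Col1a2, with log2 fold changes of -0.49 and -0.30. Another 2 rose, Pdgfrb and Col3a1, at 0.49 and 0.45. These calls are at an edgeR adjusted p under 0.05, which 26.1% of all tested genes passed as lower and 25.6% as higher. Among division genes Mki67 fell by 0.16 and Mcm2 rose by 0.17 on the log2 scale. The podocyte list also moved with the groups, at 17.1 to 18.2 CPM in I/R and 26.3 to 28.4 CPM with chemerin-9 over 3 genes. Podxl alone was at 11.05 to 14.1 and 16.4 to 18.6 CPM. So did the mitochondrial share of counts (2.81% to 2.94% against 2.56% to 2.64%) and that of the 18S gene Rn18s-rs5 (0.381% to 0.517% against 0.261% to 0.306%). The part of these differences in the results below was not tested. In bulk RNA, fewer cells of a type and less RNA per cell cannot be told apart.

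Chemerin-9 went with lower RNA of most cholesterol genes. Of the 33 genes, 32 passed the filter on low counts, and of these 25 fell, 2 rose and 5 did not pass an adjusted p under 0.05 (edgeR's quasi-likelihood test with Benjamini-Hochberg adjustment over all 14184 tested genes). Across all tested genes 51.7% passed, 26.1% lower and 25.6% higher, against 78.1% lower and 6.25% higher among the 32. The median log2 fold change was -0.51 over the 32 and -0.0037 over all tested genes. The same 25 had all 3 chemerin-9 libraries below all 3 I/R libraries, which 29.2% of all tested genes did, and 13 of them fell by more than 1.5-fold, against 7.76% of all tested genes. Without I/R replicate 3, 24 fell and 1 rose. With scaling to total counts alone, 20 fell and 2 rose, while across all tested genes that scaling gave 2893 lower and 4471 higher, against 3699 and 3636. In the authors' deposited table, 23 of the 33 were lower and 0 higher at an FDR under 0.05, against 12.0% lower and 11.9% higher of its 25189 symbols. The sample labels have a batch field with a different value for each of the 6 libraries, so batch and treatment cannot be told apart. The plot of levels by library shows the groups apart for most genes.

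**Figure D1:**
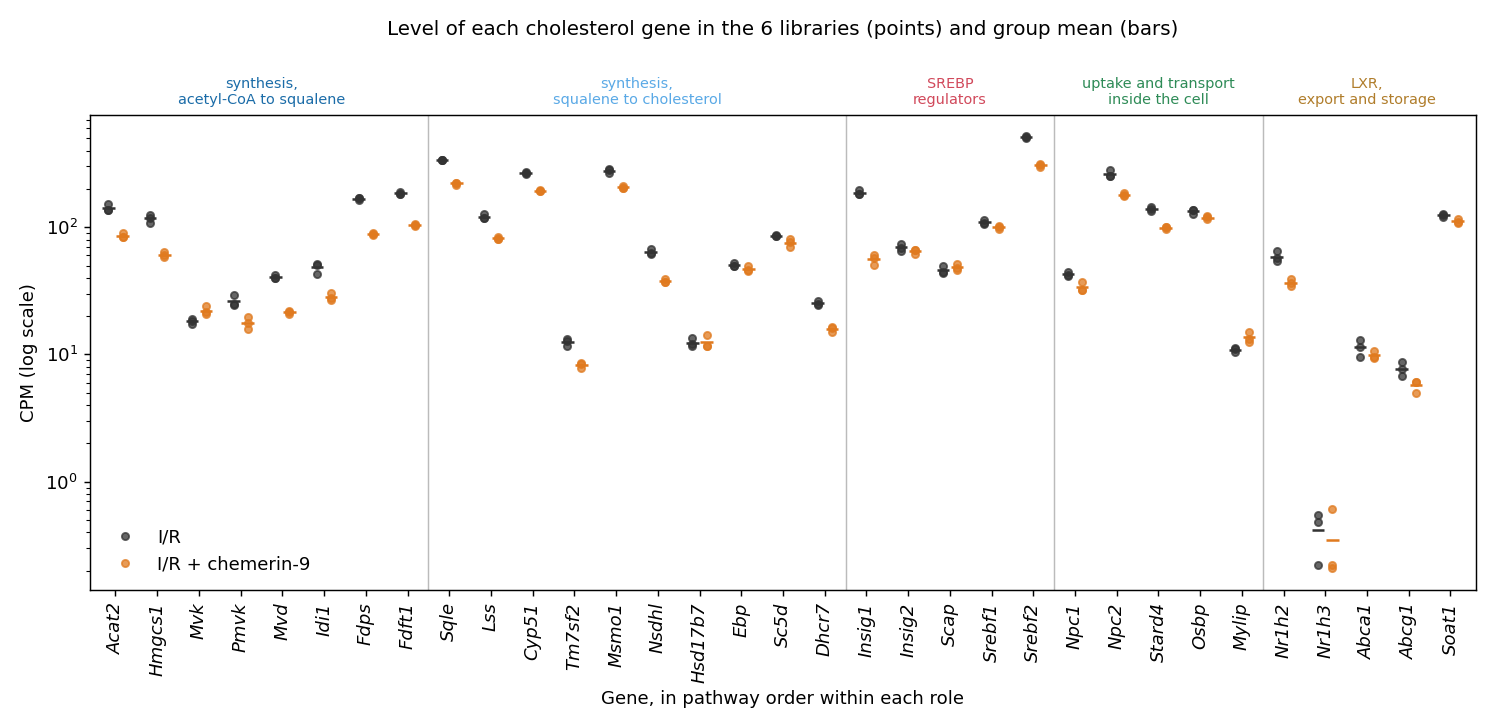
Level of each of the 33 cholesterol genes in CPM (log axis), with points for the 3 I/R libraries (dark) and the 3 libraries of I/R with chemerin-9 (orange) and bars for the group means. The chemerin-9 points lie below all I/R points in 25 genes and above them in Mvk and Mylip, and Nr1h3 is below 1 CPM in every library.

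The 8 enzymes from acetyl-CoA to squalene showed the largest shift of the 5 roles by median. Of these 7 fell and 1 rose, with a median log2 fold change of -0.79, and their summed level went from 744 ± 22.5 to 429 ± 6.99 CPM (SD, n = 3 each), a fall of 42.3%. Acat2, which condenses acetyl-CoA in the cytosol, held 138, 151 and 136 CPM in I/R and 89.3, 84.0 and 84.5 CPM with chemerin-9. Hmgcs1, the synthase that makes HMG-CoA, held 108, 125 and 118 CPM in I/R and 63.9, 58.5 and 60.5 CPM with chemerin-9. The highest treated library of Hmgcs1 thus lay well under the lowest I/R library, and the log2 fold change was -0.94 (SE 0.057, edgeR adjusted p = 6.3e-09; chromosome 13, 119690379 to 119708260, GRCm38, ENSMUSG00000093930). Its promoter is the sequence above with 1 sterol element and 4 CCAAT boxes.

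Farther along, Fdps, which makes farnesyl diphosphate at the branch to other isoprenoids, held 162, 171 and 169 CPM in I/R and 87.9, 90.6 and 86.4 CPM with chemerin-9. That is a log2 fold change of -0.92 (SE 0.041, edgeR adjusted p = 2.4e-10; chromosome 3, 89093588 to 89101959, ENSMUSG00000059743). Fdps has copies in the genome of at least 95% identity, so its count is uncertain, and the copy Gm3571 went from 11.4 ± 1.86 to 6.33 ± 0.449 CPM. Fdft1, squalene synthase and the first enzyme committed to sterols, held 183, 188 and 182 CPM against 107, 104 and 102 CPM. Exons of Fdft1 share 774 bases with Ctsb on the opposite strand, and Ctsb rose by 0.24 on the log2 scale. Mvd, the decarboxylase that yields isopentenyl diphosphate, held 39.7 to 41.9 CPM in I/R and 20.9 to 22.1 CPM with chemerin-9. Idi1, the isomerase after it, went from 48.4 ± 4.51 to 28.4 ± 2.05 CPM and Pmvk, phosphomevalonate kinase, from 26.3 ± 2.70 to 17.7 ± 1.94 CPM.

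Mvk, mevalonate kinase, was the exception among these enzymes. It held 17.3, 19.1 and 18.2 CPM in I/R and 20.7, 21.4 and 23.9 CPM with chemerin-9 (log2 fold change 0.28, SE 0.091, edgeR adjusted p = 0.019; chromosome 5, 114444269 to 114460591, ENSMUSG00000041939). The groups did not overlap, though the gap between the highest I/R and the lowest treated library was small beside that of Hmgcs1. With I/R replicate 1 left out, or chemerin-9 replicate 3, the rise no longer passed (adjusted p = 0.067 and 0.105, edgeR). The kinases before and after in the pathway therefore differed in direction, with Mvk higher and Pmvk lower by 0.57 on the log2 scale, a difference that was not itself tested.

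Of the 10 enzymes from squalene to cholesterol 8 fell, none rose and 2 did not pass, with a median log2 fold change of -0.51. Their summed level went from 1255 ± 18.0 to 899 ± 4.09 CPM, a fall of 28.3%. Sqle, squalene epoxidase and a rate-limiting step, held 339.8, 340.1 and 337 CPM in I/R and 223, 216 and 224 CPM with chemerin-9, so its libraries were tight within each group and far apart between groups (log2 fold change -0.62, SE 0.033, edgeR adjusted p = 1.8e-09). Lss, which closes the rings of lanosterol, went from 121 ± 5.85 to 82.3 ± 1.68 CPM. Cyp51, the lanosterol demethylase, went from 266 ± 4.72 to 193 ± 1.27 CPM. Msmo1, the sterol methyl oxidase whose promoter is printed above, held 288, 279 and 268 CPM against 205, 211 and 202 CPM, a log2 fold change of -0.44 (edgeR adjusted p = 2.3e-07). Its partner in removing methyl groups, Nsdhl, changed more, from 64.0 ± 3.48 to 37.8 ± 0.922 CPM (log2 fold change -0.76).

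The remaining enzymes from squalene to cholesterol split. Dhcr7, which carries out the last step of the route through 7-dehydrocholesterol, held 26.4, 24.2 and 25.0 CPM in I/R and 15.05, 16.03 and 16.4 CPM with chemerin-9 (log2 fold change -0.67, edgeR adjusted p = 1.2e-05). Tm7sf2, a sterol reductase, fell by 0.60 on the log2 scale, and it shares 532 exon bases with Vps51 on the same strand, which fell by 0.48. Sc5d, the desaturase before Dhcr7, fell by 0.18 on the log2 scale, from 85.8 ± 0.723 to 75.8 ± 5.12 CPM. Its call was lost with total counts alone (edgeR adjusted p = 0.097) and without chemerin-9 replicate 1 (0.056), and its log2 fold change was -0.29 after adjustment for GC content and length (a trend over all tested genes, subtracted from every library). Ebp, the sterol isomerase, had a log2 fold change of -0.10 (95% interval -0.23 to 0.02, edgeR adjusted p = 0.16), with groups that overlapped at 49.5 to 52.2 and 45.2 to 49.6 CPM. Hsd17b7, the ketone reductase that works with Nsdhl, held 11.6, 13.5 and 12.1 CPM in I/R and 11.6, 14.1 and 11.7 CPM with chemerin-9. Its groups covered the same range, and the 95% interval of its log2 fold change ran from -0.24 to 0.27 (edgeR adjusted p = 0.93), with a value of 0.01 whose sign turned under 4 of the 16 alternatives. Its window printed above holds 3 CCAAT boxes, and their part in its RNA was not tested.

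**Figure D2:**
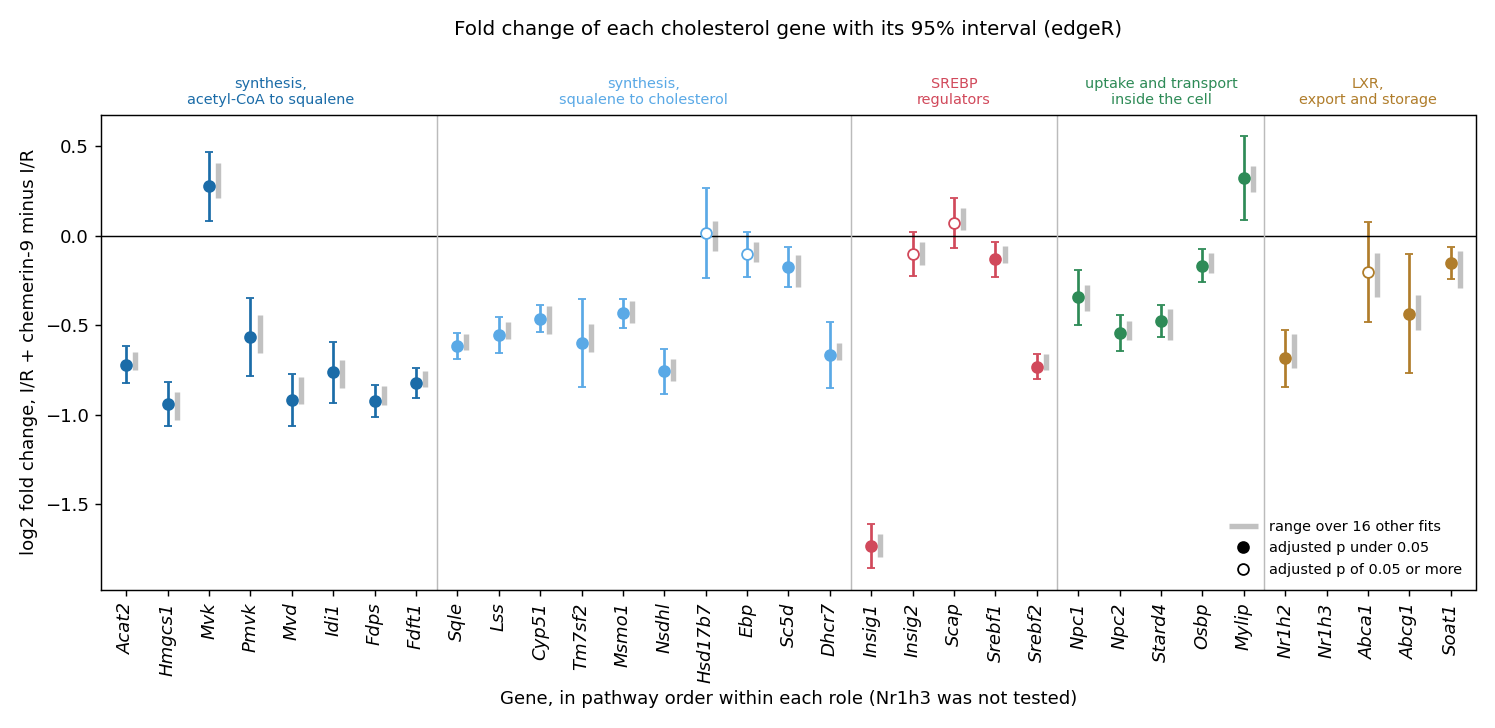
Log2 fold change of the 32 tested genes (I/R with chemerin-9 minus I/R, y axis) with the 95% interval of the edgeR fit, filled where the adjusted p was under 0.05, and grey bars for the range over 16 other fits. Most synthesis genes lie between -0.4 and -1, Insig1 lies lowest at -1.74, and Mvk and Mylip lie above 0.

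Levels per kilobase of transcript allow the enzymes to be set in order. In I/R, Msmo1 led with 136 ± 4.996 CPM per kilobase, ahead of Sqle at 122.8 ± 0.700 and Fdps at 121 ± 3.28, which did not differ from each other beyond their spread. Hsd17b7 was the weakest enzyme at 2.68 ± 0.218 CPM per kilobase, followed upward by Tm7sf2 at 8.36 ± 0.548 and Dhcr7 at 8.95 ± 0.392. With chemerin-9, Msmo1 still led at 101 ± 2.12 CPM per kilobase, and Sqle, at 80.1 ± 1.55, lay above Fdps, at 63.9 ± 1.56. These levels depend on the longest protein-coding transcript of each gene in GENCODE M21, taken as its length.

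Among the SREBP regulators 3 of 5 fell, none rose and 2 did not pass. Insig1, whose protein holds SCAP back when sterol is plentiful, is itself a target of SREBP. It held 196, 183 and 181 CPM in I/R and 60.9, 50.7 and 56.97 CPM with chemerin-9. Every treated library was under the lowest I/R library by more than 100 CPM, and the fall was 3.33-fold (log2 fold change -1.74, SE 0.058, edgeR adjusted p = 8.4e-12; chromosome 5, 28071363 to 28078662, ENSMUSG00000045294). Only 0.423% of the tested genes had a lower log2 fold change. The related Insig2, which is not driven by SREBP in the same way, held 65.3, 73.8 and 69.2 CPM against 61.2, 66.6 and 65.9 CPM. Its groups overlapped, with a log2 fold change of -0.10 (95% interval -0.23 to 0.02, edgeR adjusted p = 0.14). Among the alternatives it passed as lower only after the GC and length adjustment, at -0.16 (adjusted p = 0.022). On the scale of CPM per kilobase, Insig1 stood 2.69 times over Insig2 in I/R and at 0.869 of it with chemerin-9. The log2 ratio of the pair was 1.58, 1.31 and 1.39 in the I/R libraries and -0.01, -0.39 and -0.21 in the treated libraries, with an exact two-sided permutation p of 0.10, the smallest that 3 against 3 can give.

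The SREBP genes themselves also differed. Srebf2, whose protein chiefly drives cholesterol genes, held 507, 502 and 519.5 CPM in I/R and 309.8, 314 and 297 CPM with chemerin-9 (log2 fold change -0.73, SE 0.034, edgeR adjusted p = 3.1e-10; chromosome 15, 82147181 to 82205379, ENSMUSG00000022463). Srebf2 carries a sterol element in its own promoter, printed above. Srebf1, whose protein chiefly drives fatty acid genes, held 114, 107 and 106 CPM against 100.5, 102 and 96.8 CPM, a log2 fold change of -0.13 (edgeR adjusted p = 0.023). That call ended with total counts alone (adjusted p = 0.26), DESeq2 (0.055), the GC and length adjustment (0.27), and when I/R replicate 1 (0.10) or chemerin-9 replicate 3 (0.090) was left out. The log2 ratio of Srebf2 to Srebf1 per kilobase was 1.91 to 2.05 in the I/R libraries and 1.38 to 1.39 in the treated ones (exact two-sided permutation p of 0.10). Scap, the escort, held 43.5 to 49.2 CPM and 46.5 to 51.1 CPM, and its log2 fold change of 0.07 did not pass (95% interval -0.07 to 0.21, edgeR adjusted p = 0.37). After the GC and length adjustment it was 0.16 (edgeR adjusted p = 0.043). The plot of the INSIG and SREBP genes shows the large gap for Insig1 and Srebf2 beside the small one for their relatives.

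**Figure D3:**
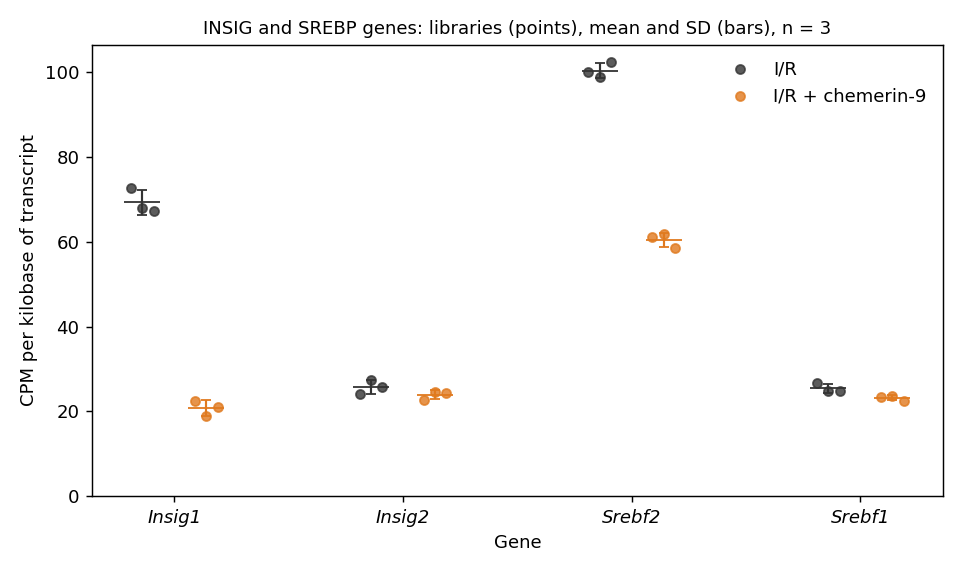
Level of Insig1, Insig2, Srebf2 and Srebf1 in CPM per kilobase of transcript, with points for the 3 libraries of each group (dark for I/R, orange for I/R with chemerin-9) and bars for the mean and SD. Insig1 goes from 69.3 to 20.8 and Srebf2 from 100.4 to 60.4, while Insig2 goes from 25.8 to 23.9 and Srebf1 from 25.4 to 23.2.

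For uptake and transport inside the cell, 4 of 5 genes fell and 1 rose, with a median log2 fold change of -0.34 and a summed level of 588 ± 10.6 CPM in I/R against 446 ± 12.9 CPM in the treated libraries. Npc2, the soluble lysosomal protein that hands cholesterol to NPC1, held 250.8, 253 and 284 CPM in I/R and 176, 186 and 178 CPM with chemerin-9 (log2 fold change -0.55, edgeR adjusted p = 2.4e-07). The highest value of Npc2 was in I/R replicate 3, and the groups stayed apart without it. Npc1, the membrane protein that exports cholesterol from lysosomes, held 41.5, 42.2 and 44.2 CPM against 31.9, 37.1 and 31.8 CPM, a log2 fold change of -0.34. Its exons overlap Rmc1 on the opposite strand over 511 bases, and Rmc1 had a log2 fold change of -0.09 (edgeR adjusted p = 0.33). Stard4, a soluble sterol carrier and an SREBP target, went from 138 ± 4.66 to 99.4 ± 2.12 CPM (log2 fold change -0.48, edgeR adjusted p = 2.8e-07). Osbp, which exchanges cholesterol for a phosphoinositide between the endoplasmic reticulum and the Golgi, fell by 0.17 on the log2 scale, from 134 ± 5.22 to 119 ± 3.11 CPM. That call ended with total counts alone (log2 fold change -0.10, edgeR adjusted p = 0.071). Mylip, the ubiquitin ligase that LXR induces and that degrades lipoprotein receptors, rose. It held 11.2, 10.98 and 10.5 CPM in I/R and 13.2, 14.9 and 12.6 CPM with chemerin-9 (log2 fold change 0.32, SE 0.110, edgeR adjusted p = 0.024). The rise of Mylip no longer passed with DESeq2 (adjusted p = 0.070), nor when 1 of I/R replicate 2 (0.051), I/R replicate 3 (0.057) and chemerin-9 replicate 2 (0.113) was left out.

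Of the 5 genes of the LXR receptors, export and storage, 4 were tested, of which 3 fell, none rose and 1 did not pass. Among all tested genes 26.1% fell. The count of 3 became 1 with total counts alone and 2 with DESeq2. Nr1h2, which encodes the widely expressed LXR beta, held 56.97, 54.1 and 64.8 CPM in I/R and 36.3, 38.8 and 34.5 CPM with chemerin-9, with no overlap between groups (log2 fold change -0.69, SE 0.074, edgeR adjusted p = 2.2e-06; chromosome 7, 44549616 to 44553951, ENSMUSG00000060601). Nr1h3, which encodes LXR alpha, had 3 to 8 counts per library and stayed under the filter, at 0.418 ± 0.172 and 0.346 ± 0.227 CPM. The exporter genes were weak. Abca1, which loads cholesterol onto apolipoproteins, held 9.61, 13.1 and 11.4 CPM against 10.7, 9.63 and 9.36 CPM, with overlapping groups and a log2 fold change of -0.20 (95% interval -0.48 to 0.08, edgeR adjusted p = 0.21). After the GC and length adjustment it was -0.34 (adjusted p = 0.038). Abcg1, which loads cholesterol onto lipoprotein particles, held 6.72, 7.64 and 8.72 CPM against 6.09, 5.001 and 6.07 CPM (log2 fold change -0.44, edgeR adjusted p = 0.029). Its fall did not pass with DESeq2 (adjusted p = 0.077) or total counts alone (0.059), nor on leaving out I/R replicate 2 (0.053), I/R replicate 3 (0.12) or, of the treated libraries, replicate 2 (0.114). Soat1, which esterifies cholesterol for storage, went from 124 ± 3.47 to 111.5 ± 3.69 CPM, a log2 fold change of -0.15 (edgeR adjusted p = 0.0075). That value was -0.29 after the GC and length adjustment and -0.09 with total counts alone, where it did not pass (adjusted p = 0.111).

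Seen by library, the median fall over all tested members was similar in the 3 treated libraries, but less so in the smaller roles. The median deviation from the I/R mean, on the scale of log2(CPM + 0.5), was -0.51, -0.51 and -0.47 in chemerin-9 replicates 1, 2 and 3 over the 32 tested genes, against -0.03, 0.01 and -0.01 in the I/R libraries. For the enzymes up to squalene it was -0.78, -0.84 and -0.80 in the treated libraries, and for the later enzymes -0.48, -0.50 and -0.52. The SREBP regulators had -0.178, -0.102 and -0.173, and the genes of uptake and transport -0.411, -0.199 and -0.415. For the tested genes of the LXR receptors, export and storage it was -0.204, -0.392 and -0.283. The heat map by library shows the Insig1 row as the darkest in all 3 treated libraries.

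**Figure D4:**
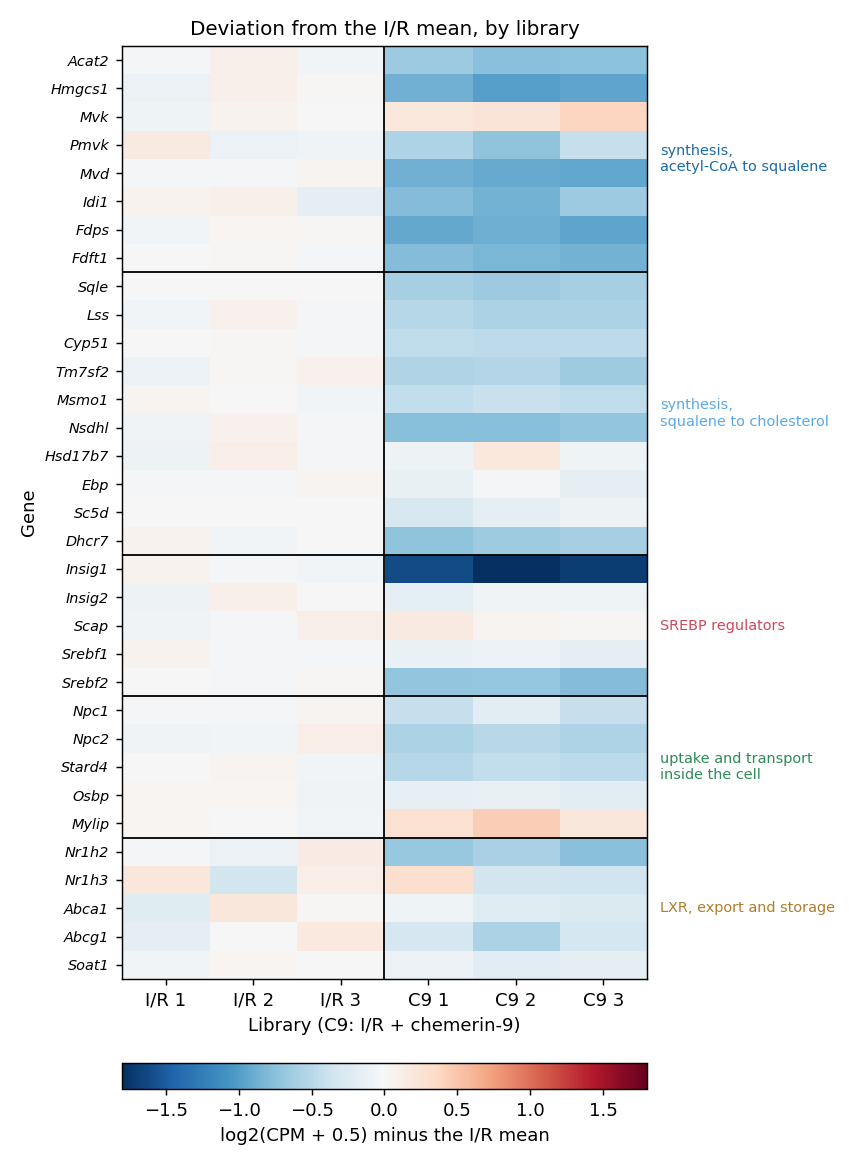
Deviation of each gene from its I/R mean in log2(CPM + 0.5) for the 6 libraries (columns) and the 33 genes (rows, grouped by role), blue for lower and red for higher. The 3 treated columns are blue for most rows, with Mvk and Mylip red, and Nr1h3 varies within both groups.

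Beyond the 33 genes, lists of 78 further genes of sterol handling were examined, of which 72 had a row and 71 were tested. Of these 22 fell and 26 rose, or 31.0% and 36.6%, with a median log2 fold change of -0.01, against 26.1% lower and 25.6% higher among all tested genes. The shares that fell or rose in the lists below are to be read against these, and with 8 to 16 tested genes a list several are near them. Among further synthesis enzymes and electron donors 3 of 8 fell and 3 rose. Acly, which supplies cytosolic acetyl-CoA, fell from 288 ± 4.79 to 240.0 ± 2.65 CPM. The electron donor genes Cyb5b, Cyb5r3 and Por rose, with Cyb5b going from 249 ± 9.12 to 311 ± 1.23 CPM, Cyb5r3 from 447 ± 16.2 to 543 ± 7.76 CPM and Por from 108 ± 1.13 to 119 ± 4.25 CPM. In the isoprenoid branch 2 of 9 fell and 4 rose, led by Pdss1, which makes the tail of coenzyme Q (log2 fold change 0.91), and by the prenyl transferase subunits Pggt1b (0.39), Fnta (0.33) and Fntb (0.25). The falls were those of Nus1 and Icmt, at -0.13 each, with overlapping groups in both.

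Among 13 genes of SREBP processing and sterol-regulated degradation 4 fell and 5 rose. Syvn1, a ubiquitin ligase of the endoplasmic reticulum, fell from 49.6 ± 1.13 to 27.8 ± 1.21 CPM, and Rnf145, a sterol-responsive ligase, from 86.9 ± 1.79 to 59.0 ± 3.65 CPM. Erlin1 rose by 0.44 on the log2 scale while its partner Erlin2 fell by 0.26, and Ubxn8 rose by 0.97. Pgrmc1, a membrane partner of cytochromes P450, fell by 0.33. In lipoprotein uptake 4 of 10 fell and 5 rose. The neutral cholesterol ester hydrolase gene Nceh1 rose from 32.7 ± 3.05 to 63.1 ± 2.27 CPM, while the lysosomal lipase gene Lipa fell from 40.6 ± 2.64 to 29.4 ± 0.950 CPM. The receptor genes Vldlr and Lrp1 rose by 0.35 and 0.23 on the log2 scale and Lrp8 fell by 0.43. Of 15 tested sterol transfer genes 4 fell and 2 rose, with Gramd1a, which moves cholesterol from the plasma membrane to the endoplasmic reticulum, falling from 43.4 ± 2.49 to 22.3 ± 0.696 CPM. Stard3 and Osbpl3 fell by 0.32 and 0.22 on the log2 scale, and Osbpl2 and Stard5 rose by 0.29 and 0.15. Of 16 further export, oxysterol and LXR partner genes 5 fell and 7 rose, among them the LXR partner gene Rxra (0.42), Ncoa5 (0.80), Cav1 (0.53) and the weak exporter gene Abcg4 (1.72, from 1.42 ± 0.459 to 4.71 ± 0.126 CPM), while Abca7 fell by 0.64, the lipid transfer protein gene Pltp by 0.47 and Cyp27a1, which makes an oxysterol, by 0.93.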

How the data were processed

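RNA-seq counts of 6 libraries labelled kidney, 3 per group, were compared, with groups taken from the sample titles. The deposited table names treated columns IC, read as initials of I/R and C9, whereas the labels name these libraries S and a column S of another table, not used here. The reading is unchecked, and every statement on chemerin-9 rests on it. The authors deposited raw counts per gene symbol, beside the log2 and linear ratio of the groups, a p-value and an FDR from their own comparison. HISAT2, HTSeq, DESeq 1.18.1 and mm10 are named per the submitters' processing notes. The sources used here give neither the annotation release nor the strand setting, so overlapping genes are uncertain.

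Repeated symbols (27 rows) were dropped. Counts were tested with edgeR 4.0.16 (TMM, filterByExpr, quasi-likelihood, group alone), with Benjamini-Hochberg adjustment over 14184 genes at 0.05. Means are CPM ± SD over 3 libraries. Intervals are 95%. Table positions matched GRCm38 (97.5% of starts equal GENCODE M21). Copies were searched with BLAST 2.17.0 at 95% identity over 50% of the shorter transcript. A match was found for 7 members (Acat2, Fdft1, Fdps, Idi1, Insig1, Npc1 and Soat1). That of Npc1 was Rmc1, the gene whose exons overlap it, and those of Soat1 aligned over only 101 to 125 bases. Alternatives were other size factors and filters, DESeq2 1.42.0, limma-voom (limma 3.58.1), a robust prior, a replicate block, removal of the GC and length trend, a threshold of 0.1, and leaving out each library. The fits were also run on simulated data, the outcome of which is not given and is not relied on here. Every member is described. Of the other lists the 3 genes with the smallest p in each direction, and called genes against the list's majority, were to be named, and some of these are not reported here. Members and lists were chosen with earlier results of these data known.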

Additional observations from a re-analysis of the deposited data

How the results depend on the processing

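In 16 alternative fits, 21 of the 32 tested members kept direction and side of the threshold throughout, 20 of them called. Of 512 member values 20 lost and 3 gained the call, and those that lost it belong to Mvk, Sc5d, Srebf1, Osbp, Mylip, Abcg1 and Soat1. The count of 25 members lower was 20 with total counts alone, 23 with DESeq2, 24 with any single library left out and 26 after removing the trend on GC content and length. The 2 members higher became 1 with DESeq2, and 1 to 2 without a library. The mevalonate enzymes higher (1) went to 0 to 1 without a library. Genes of uptake higher (1) went to 0 with DESeq2 and 0 to 1 without a library. SREBP regulators higher (0) became 1 after the GC and length adjustment. Genes of the LXR group lower (3) became 1 with total counts alone. Hsd17b7 turned sign, near 0, at -0.0882 after that adjustment, and ran from -0.0876 to 0.0764 with 1 library left out, below 0 without the first or last I/R library or the second treated one. The labels do not say that a replicate number pairs samples, and same-numbered libraries correlated at 0.102, -0.052 and 0.042 in their deviations, so they were not taken as pairs. With the replicate block 25 members were lower and 2 higher, with no member call changed, and 3692 and 3607 of all tested genes. The cause of these shifts was not tested. Depth limits Nr1h3, at 3 to 8 counts.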
